A study of Mus musculus with 50 samples.

Results

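The 10 genes described here code for the proteins that hand lipopolysaccharide (LPS) to Toll-like receptor 4 and carry its signal into the cell, namely the co-receptors Cd14 and Ly96, the adaptors Myd88, Tirap, Ticam1 and Ticam2, and the kinase family Irak1, Irak2, Irak3 and Irak4. They were chosen by symbol, 10 of 10 were found among the 53700 genes of the count files, and all 10 were among the 16696 genes that passed the filter on low counts. Poly-A RNA of hippocampal microglia, sorted as CD45int CD11b+ cells from male C57BL/6J mice, was sequenced in 50 mice, 1 library per mouse. Control mice (CTR) had standard nests, and early-life stress (ELS) mice had limited bedding and nesting material from P2 to P9. At P9, 12 CTR and 13 ELS mice were killed without an injection. At P200, mice received an intraperitoneal injection of PBS (7 CTR and 6 ELS mice) or of 1 mg/kg LPS (7 CTR and 5 ELS mice) and were killed a few hours later. The sample labels give several mice a shared number, which may mark the nest but is not defined in them, so p-values treat mice as separate although some may have shared a dam.

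Free LPS, a cell wall component of Gram-negative bacteria, is passed by CD14 to MD-2, the product of Ly96, which sits on Toll-like receptor 4 and makes the receptor pair up. At the cell surface the paired receptor recruits TIRAP and MyD88, and MyD88 gathers IRAK4, IRAK1 and IRAK2 into a complex that leads to NF-κB and inflammatory cytokines. After uptake into endosomes, with the help of CD14, the receptor turns to TRAM (Ticam2) and TRIF (Ticam1), which lead to IRF3 and type I interferon. IRAK3 (IRAK-M) is known mainly as a brake on the MyD88 branch.

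The values below are CPM, counts scaled to a common library size by the TMM method, unless a level per length is named. A log2 fold change comes from edgeR's quasi-likelihood test over all 16696 genes and is given with its standard error (SE), and a gene is called when its Benjamini-Hochberg adjusted p is under 0.05. Total counts per mouse lay between 5152838 and 42231258. All 8 microglial markers checked, among them Tmem119 and P2ry12, had a median above 1 CPM in every group, and their summed level was 35710 to 81090 CPM. Of the markers of other cells, B and T cell genes summed to at most 0.724 CPM in any mouse. The oligodendrocyte and endothelial lists reached 71 and 68.5 CPM and the neuronal list 107 CPM. The astrocyte list reached 612 CPM and that of border-associated macrophages 921 CPM. Monocyte and neutrophil lists are given below. In these sorted populations, fewer cells of a type and less RNA per cell cannot be told apart. 3 libraries had fewer than 16000 genes with a count, 1 in P200-CTR-PBS (mouse 1.1, 12854 genes) and 2 in P9-ELS (15731 and 12482 genes). Some members had few reads in them. Tirap had 2 reads and Ticam1 1 read in mouse 1.1, and Irak3 had 1 read in the P9-ELS library with 15731 genes. The results that these libraries moved most are also given without them.

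**Figure D1:**
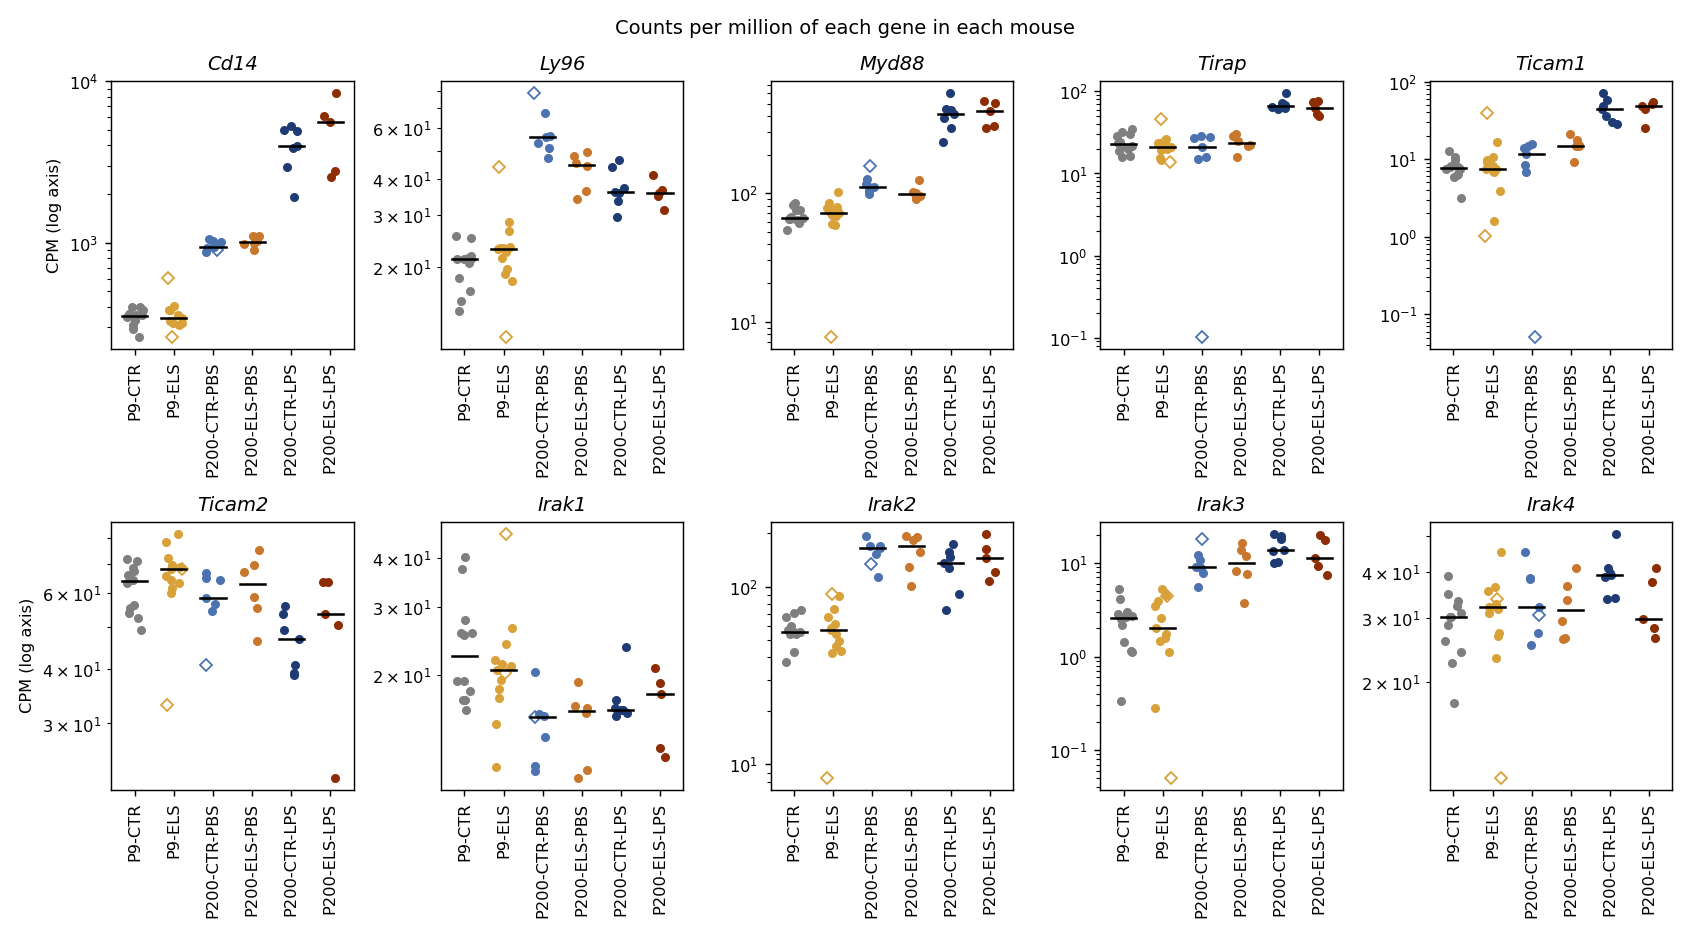
CPM (log axis, a separate range for each gene) of the 10 genes in each of the 50 mice, by group. Points are mice, black lines are medians, and open diamonds are the 3 libraries with fewer than 16000 detected genes. Cd14, Myd88, Tirap and Ticam1 in the LPS groups lie above every PBS mouse of the same rearing. Cd14, Ly96, Myd88, Ticam1, Irak2 and Irak3 have higher medians at P200 with PBS than at P9 in both rearings.

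Per kilobase of exon, the 10 genes differed widely in level and Cd14 was the highest in each group. In P200-CTR-PBS mice the mean level per kilobase was 557 CPM for Cd14, 47.4 for Ly96, 30.9 for Myd88 and 25.9 for Irak2. Cd14 did not overlap with Ly96, whereas the ranges of Ly96 and Myd88 and of Myd88 and Irak2 overlapped. The levels then fell to 10.0 CPM per kilobase for Ticam2, 5.38 for Irak4, 3.44 for Ticam1, 2.85 for Tirap, 2.68 for Irak1 and 1.81 for Irak3. Irak2 and Ticam2 did not overlap, and each of the others overlapped with its neighbour. Without mouse 1.1 the means were 4.01 for Ticam1 and 3.32 for Tirap, and the order of the 10 means was the same. Ticam2 shares 3782 exon bases on the same strand with Tmed7, so its level per kilobase is uncertain. In P200-CTR-LPS mice Myd88, at 106 CPM per kilobase, stood in second place and overlapped with neither Cd14 above it, at 2295, nor Ly96 below it, at 30.4. Irak3 had the lowest mean of the 10 genes in all 6 groups.

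**Figure D2:**
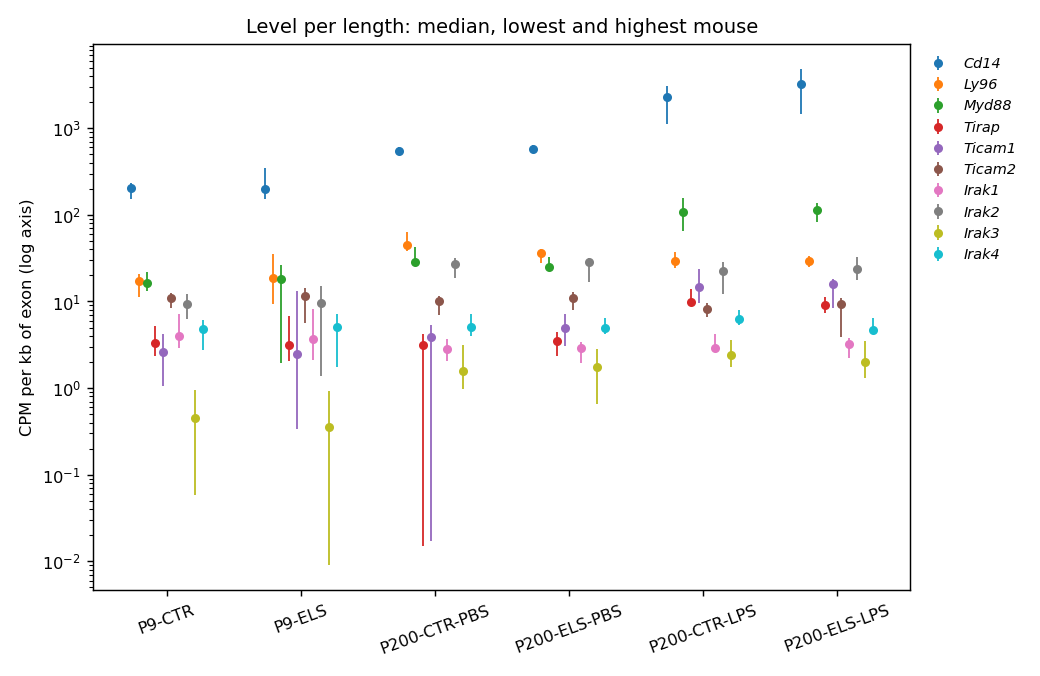
Level per length, in CPM per kilobase of annotated exon (log axis), of the 10 genes in the 6 groups. Points are medians and lines reach from the lowest to the highest mouse, and Cd14 lies above every other gene in each group.

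LPS was compared with PBS at P200, within CTR and within ELS mice, to see which members of this receptor module moved with an immune challenge. In CTR mice Cd14, Myd88, Tirap and Ticam1 rose and Ly96 fell, while Ticam2, Irak1, Irak2, Irak3 and Irak4 were not called. The count of 4 of 10 members called higher stands beside 8.73% of all genes tested, and the count of 1 of 10 called lower beside 6.20%. Past the larger threshold of an absolute log2 fold change above 1, 4 members were called, against 9.62% of all genes. The LPS and PBS groups did not overlap for 5 of 10 members, which was so for 7.49% of all genes. In ELS mice Cd14, Myd88 and Tirap rose, 3 of 10 members beside 7.40% of all genes, and none fell, beside 4.94%. These 3 were also past the larger threshold, beside 7.86% of all genes. In ELS mice 4 of 10 members did not overlap, beside 10.0% of all genes. The median log2 fold change over the members was 0.39 in CTR and 0.25 in ELS mice, and over all genes it was 0 and -0.04.

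Cd14, the surface protein that binds LPS and passes it on, had the highest level. Its lowest, median and highest values were 882, 942 and 1057 CPM in P200-CTR-PBS mice and 1931, 3960 and 5271 CPM in P200-CTR-LPS mice. In ELS mice they were 898, 1007 and 1109 CPM with PBS, and the 5 LPS mice had 2565, 2771, 5588, 6066 and 8416 CPM. Every LPS mouse lay above every PBS mouse of either rearing, and the spread widened with LPS, with a pair of ELS mice near the low end. The log2 fold change was 2.04 (SE 0.18, adjusted p = 8.22e-13, edgeR) in CTR and 2.32 (SE 0.21, adjusted p = 6.93e-13) in ELS mice, or 4.12-fold and 4.99-fold.

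Since monocytes and neutrophils also express Cd14, their markers were read beside it. The 6 monocyte markers summed to 0.712 to 9.12 CPM in P200-CTR-PBS, 2.65 to 7.73 in P200-CTR-LPS, 3.55 to 11.0 in P200-ELS-PBS and 0.878 to 8.89 in P200-ELS-LPS mice, ranges that overlapped. Within P200-ELS-LPS, however, the list moved with Cd14. It was 0.878 and 2.78 CPM in the pair of mice with Cd14 at 2565 and 2771 CPM, and 8.12, 8.35 and 8.89 CPM in the mice with 5588, 6066 and 8416 CPM. In the P200-CTR-LPS mice, in order of rising Cd14, the list summed to 4.006, 7.199, 4.336, 4.007, 2.645, 4.347 and 7.727 CPM. In that group the list thus did not follow the order of Cd14. Of its 3 markers that passed the filter, Vcan was called higher with LPS in ELS mice (log2 fold change 5.25, adjusted p = 0.00498, edgeR, from a median of 0 to 0.369 CPM), and Ccr2 and Plac8 were not called in either rearing. The median of at least 2 of the 6 was at 0 in each of these groups. The 8 neutrophil markers summed to at most 0.272, 1.84, 1.29 and 9.17 CPM in the same order. In the LPS groups all 8 had a median of 0. In the P200-ELS-LPS mice, in order of rising Cd14, the neutrophil list summed to 0.761, 1.24, 0.148, 9.17 and 2.67 CPM. The border-associated macrophage list summed to 4.915, 4.884, 3.468, 8.51 and 11.85 CPM in the same order. In P200-CTR-LPS mice, by rising Cd14, it summed to 6.938, 7.648, 5.359, 4.736, 6.921, 4.504 and 1.865 CPM. Of this list Cbr2 was called higher with LPS in CTR mice (log2 fold change 3.37, adjusted p = 0.00624, edgeR, from a median of 0 to 0.281 CPM), but not in ELS mice (0.18). The microglial list summed to 75090 to 80550 CPM in P200-CTR-PBS and 63540 to 76220 in P200-CTR-LPS mice, and to 74690 to 81090 and 68500 to 77450 in ELS mice. Within it Sall1, a transcription factor of microglial identity, fell by 1.73 on the log2 scale in CTR (adjusted p = 1.17e-12, edgeR) and by 2.01 in ELS mice (adjusted p = 1.8e-12), and P2ry12, a purine receptor, fell by 0.62 and 0.58 (adjusted p = 0.00443 and 0.0271). The summed astrocyte list was 299 to 503 CPM in P200-CTR-PBS and 483 to 612 in P200-CTR-LPS mice, and nearly all of it was the glutamate transporter gene Slc1a3 (medians of 323 and 571 CPM), with a median of 0.281 CPM or less for Aqp4. In ELS mice the astrocyte genes Gfap and Gja1 were called higher with LPS, from medians of 0 to 1.05 and 2.07 CPM. The part of these lists in the members' changes was not tested.

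Ly96 codes for MD-2, the protein of the receptor complex that holds the lipid part of LPS. Its lowest, median and highest values were 47.4, 55.8 and 78.8 CPM in P200-CTR-PBS and 29.7, 36.0 and 46.4 CPM in P200-CTR-LPS mice. These groups did not overlap. The log2 fold change was -0.64 (SE 0.17, adjusted p = 0.0053, edgeR), and -0.56 (adjusted p = 0.000905) without the 3 low libraries, of which mouse 1.1 had the highest Ly96 of its group. With PBS, ELS mice had 34.1, 44.8 and 49.5 CPM, and with LPS they had 31.3, 35.1, 35.9, 36.8 and 41.4 CPM. These overlapped, and Ly96 was not called in ELS mice (log2 fold change -0.25, SE 0.19, adjusted p = 0.459).

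The sequences below show what lies before the RefSeq start site of the 3 adaptor genes whose LPS and PBS groups did not overlap, beside Irak1, whose groups did. They come from RefSeq start sites (table build GRCm38.p6) and were placed in GRCm39 by exact match. Windows were at hand for 7 of the 10 members. Cd14, Ly96 and Ticam2 had none and were not searched. Only the 250 bases before the start were searched, on both strands, for the NF-κB consensus, for a pair of interferon response half-sites (GAAA, any 2 bases, GAAA), for the AP-1 motif TGANTCA and for the PU.1 core GAGGAA. Capitals mark a match. Stretches inside an annotated exon of the gene are cut to 30 bases around the match. All 4 genes lie on the minus strand, and the sequences read 5′ to 3′ along the gene.
Myd88, chr9:119169105-119169134, interferon response half-sites: gagcttctcgGAAAGCGAAAgaaggagggg
Tirap, chr9:35111285-35111451, no match: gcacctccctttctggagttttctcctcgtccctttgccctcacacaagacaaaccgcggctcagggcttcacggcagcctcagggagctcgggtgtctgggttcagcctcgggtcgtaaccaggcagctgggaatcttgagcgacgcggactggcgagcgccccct
Ticam1, chr17:56583787-56584017, PU.1 core: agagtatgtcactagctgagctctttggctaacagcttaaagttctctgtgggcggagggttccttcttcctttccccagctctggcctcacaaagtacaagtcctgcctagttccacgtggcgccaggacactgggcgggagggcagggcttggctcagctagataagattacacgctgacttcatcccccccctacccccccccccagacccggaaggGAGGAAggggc
Irak1, chrX:73067526-73067555, NF-κB consensus: agggcggcgcGGGACGCCCCcgtgtggcgg

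All 250 bases searched for Myd88 lie inside an annotated exon, since the annotated gene reaches farther upstream than the RefSeq start used, so its window is transcribed sequence in that annotation. The half-sites of Myd88 begin 40 bases before this RefSeq start, and 2.98% of all 32536 distinct windows in the table hold such a pair. The PU.1 core of Ticam1 begins 30 bases before the start and is found in 23.4% of the windows. The NF-κB match of Irak1 begins 21 bases before the start and reads as a match on both strands, and 7.28% of the windows hold one. AP-1 was in 6.73% of the windows and in none of those of the members. Irak2, Irak3 and Irak4 held no match. A match is a description of letters, and its use in these cells was not measured.

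Myd88, the adaptor shared by most Toll-like receptors and the interleukin-1 receptor family, carries the half-sites printed above. Its lowest, median and highest values were 99.2, 112 and 165 CPM in P200-CTR-PBS and 250, 417 and 602 CPM in P200-CTR-LPS mice. With PBS, ELS mice had 90.3, 98.0 and 128 CPM, and with LPS 323, 332, 437, 504 and 527 CPM. All LPS mice were above all PBS mice, and the CTR and ELS ranges overlapped within each treatment. On the log2 scale Myd88 rose by 1.78 (SE 0.23, adjusted p = 3.97e-08, edgeR) in CTR and 2.07 (SE 0.26, adjusted p = 1.98e-08) in ELS mice. Myd88 shares 628 exon bases with Acaa1a on the other strand, and whether the counting used strand is not stated.

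Tirap codes for the adaptor that brings MyD88 to the receptor at the plasma membrane. Tirap shares 446 exon bases with Gm39318 and 39 with the more abundant Srpra, both on the other strand. Its 7 values in P200-CTR-PBS mice were 0.102 CPM in mouse 1.1 and 15, 15.8, 21.2, 26.8, 27.5 and 28.7 CPM in the others. P200-CTR-LPS mice had 60.8, 66.0 and 95 CPM as the lowest, median and highest values. In ELS mice these were 16.1, 23.5 and 30.5 CPM with PBS, and 50.1, 52.4, 62.4, 74.0 and 75.3 CPM with LPS. Both pairs of groups were apart, with or without mouse 1.1. With all libraries the log2 fold change was 1.86 (SE 0.35, adjusted p = 7.68e-05, edgeR) in CTR and 1.39 (SE 0.39, adjusted p = 0.0109) in ELS mice, and without the 3 low libraries it was 1.64 (adjusted p = 7.38e-10) and 1.39 (adjusted p = 1.77e-07).

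Ticam1 (TRIF) is the adaptor of the endosomal branch and of Toll-like receptor 3. In P200-CTR-PBS mice it was 0.0509 CPM in mouse 1.1 and 6.77, 8.45, 11.8, 14.1, 14.9 and 15.9 CPM in the others, and P200-CTR-LPS mice had 28.7, 43.7 and 70.7 CPM as the lowest, median and highest values. The ELS mice had 9.2, 14.9 and 21.2 CPM with PBS, and 25.3, 44.2, 47.8, 51.0 and 54.7 CPM with LPS. No LPS mouse overlapped with a PBS mouse. The log2 fold change was 2.13 (SE 0.49, adjusted p = 0.00122, edgeR) in CTR mice, and 1.91 (SE 0.31, adjusted p = 3.35e-06) without the 3 low libraries. In ELS mice it was 1.53 (SE 0.54, adjusted p = 0.0503), which missed the threshold, and without the 3 libraries, none of which is in this comparison but which enter the shared estimate of the spread, it was 1.53 with SE 0.32 and adjusted p = 0.000294.

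Ticam2 (TRAM), the adaptor that joins TRIF to Toll-like receptor 4, was not called with LPS in either rearing. Its lowest, median and highest values were 40.9, 58 and 66.4 CPM in P200-CTR-PBS and 38.8, 47.0 and 55.9 CPM in P200-CTR-LPS mice. With PBS the ELS mice had 46.4, 62.8 and 75.1 CPM, and with LPS 22.5, 50.7, 53.5, 63.5 and 63.6 CPM. The groups overlapped, and the log2 fold change was -0.32 (SE 0.16, adjusted p = 0.182, edgeR) in CTR and -0.29 (SE 0.18, adjusted p = 0.339) in ELS mice. In CTR mice it passed the threshold without the 3 low libraries (-0.39, adjusted p = 0.039). Reads of Tmed7 may be part of these counts, as described above.

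None of the 4 kinase genes was called with LPS in CTR or in ELS mice. Irak4, the kinase that starts the cascade, had medians of 32.0 CPM with PBS and 39.4 CPM with LPS in CTR mice, and of 31.4 and 29.9 CPM in ELS mice. The 95% interval of its log2 fold change was -0.13 to 0.58 in CTR and -0.39 to 0.42 in ELS mice. Irak4 shares 647 exon bases with the more abundant Twf1 and 341 with Pus7l, both on the other strand. Irak1, the kinase that IRAK4 phosphorylates, had medians of 15.7 and 16.3 CPM in CTR and 16.2 and 17.9 CPM in ELS mice. Its interval was -0.20 to 0.64 in CTR and -0.34 to 0.62 in ELS mice. Irak2, which sustains the signal, had medians of 164 and 136 CPM in CTR and 170 and 144 CPM in ELS mice, and its intervals were -0.74 to 0.20 and -0.64 to 0.41. For these 3 genes the intervals leave no room for a rise of 1 on the log2 scale. Irak3, the brake, was the least precise. It was 5.54 to 17.9 CPM with PBS and 10.0 to 20.4 CPM with LPS in CTR mice, and 3.72 to 16.1 and 7.48 to 19.7 CPM in ELS mice. Its log2 fold change was 0.55 (SE 0.46, adjusted p = 0.504, edgeR) in CTR and 0.36 (SE 0.52, adjusted p = 0.732) in ELS mice.

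**Figure D3:**
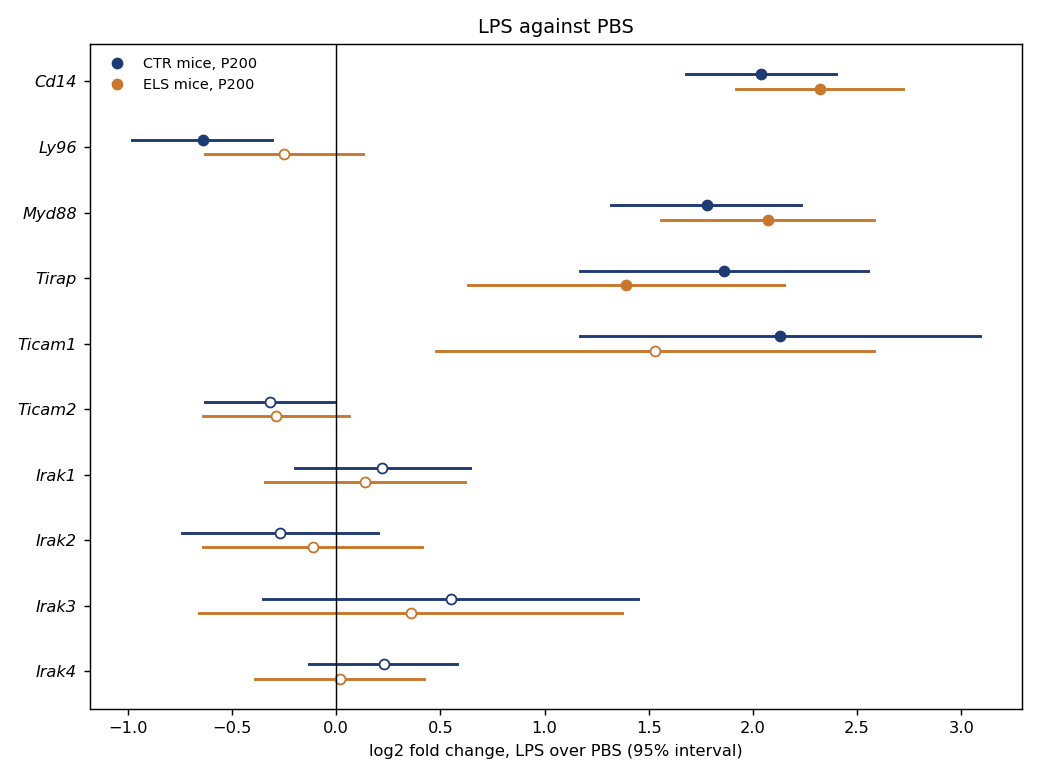
Log2 fold change of LPS over PBS at P200 for the 10 genes in CTR and ELS mice, with 95% intervals. Filled points are called at an adjusted p under 0.05. Cd14, Myd88 and Tirap are filled in both, and Ticam1 and Ly96 in CTR mice. The 4 Irak genes are not filled and their intervals include 0, those of Irak3 being the widest of these.

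The difference between these LPS effects was tested with an interaction term, which asks whether rearing changed the response. None of the 10 members was called, and none had an unadjusted p under 0.05. Over all genes 0% were called by edgeR's quasi-likelihood test, with 980 genes at an unadjusted p under 0.05, while its likelihood-ratio test called 66 genes and DESeq2 15, no member among them. The interaction, as ELS minus CTR on the log2 scale, was 0.28 for Cd14 (95% interval -0.25 to 0.80), 0.39 for Ly96 (-0.11 to 0.89), 0.29 for Myd88 (-0.38 to 0.96), -0.47 for Tirap (-1.48 to 0.54) and -0.60 for Ticam1 (-2.0 to 0.79). Ly96 and Ticam1, called in CTR but not in ELS mice, were thus not shown to differ between them. Without the 3 low libraries the interaction was -0.25 for Tirap (-0.76 to 0.26) and -0.38 for Ticam1 (-1.23 to 0.47), so an interaction of -1 lies inside the interval of Tirap with all libraries and outside it without these. That of Cd14 was 0.02 without the P200-ELS-LPS mouse with the highest Cd14.

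The other genes of the pathway were taken from a list of 59, of which 57 were tested. With LPS 20 were called higher and 3 lower in CTR mice, and 15 and 4 in ELS mice, beside the shares of all genes given above (8.73% and 6.20% in CTR, 7.40% and 4.94% in ELS mice). Of the receptor complex and its relatives, 2 of 7 genes fell in each rearing and none rose. Tlr4 itself was 260 to 470 CPM with PBS and 127 to 269 CPM with LPS in CTR mice, and 261 to 464 and 57.3 to 214 CPM in ELS mice. Its log2 fold change was -0.96 (SE 0.23, adjusted p = 0.00198, edgeR) in CTR and -1.32 (SE 0.27, adjusted p = 0.00026) in ELS mice. Cd180, a receptor relative that dampens Toll-like receptor 4 in macrophages, fell by 0.95 and 0.91. Itgam, an integrin chain that also binds LPS, was not called (0.26 and 0.28).

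Among the relay genes, 4 of 19 rose and 1 fell in CTR mice, and 2 rose and 1 fell in ELS mice. The counts of relay genes that fell, and of those that rose in ELS mice, were thus near the shares of all genes. Map3k8, a kinase upstream of ERK, went from 11.4 to 22.3 CPM with PBS to 267 to 471 CPM with LPS in CTR mice (log2 fold change 4.55, SE 0.24, adjusted p = 2.14e-21, edgeR) and changed by 4.49 in ELS mice. Traf6, the ubiquitin ligase that IRAK1 and IRAK2 engage, rose by 1.14 and 1.12. Ripk1, which TRIF engages, rose by 1.97 in CTR mice, and in ELS mice its log2 fold change was 0.66 (adjusted p = 0.24). None of the 57 pathway genes was called in the interaction of LPS and rearing, so these responses were not shown to differ between CTR and ELS mice.

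Of the transcription factors 5 of 8 rose in CTR and 4 of 8 in ELS mice. The NF-κB members Relb, Nfkb2 and Rel rose by 3.52, 2.96 and 1.43 in CTR and by 3.33, 3.02 and 1.54 in ELS mice. Of the brakes 6 of 12 and 5 of 12 rose and none fell. Nfkbia, the NF-κB inhibitor, rose by 3.56 and 4.07, and Tnfaip3, the editing enzyme A20, by 3.57 and 3.60. Tnip3 was at most 0.0804 CPM in any PBS mouse, 0.429 to 40.6 CPM in P200-CTR-LPS and 5.75 to 128 CPM in P200-ELS-LPS mice. Of the other receptors that signal through MyD88, 5 of 11 rose in CTR mice, and 4 rose and 1 fell in ELS mice. Tlr2 had the lowest p of these in CTR mice and rose by 2.99 and 3.69, Tlr6, its partner, rose by 1.02 and 0.93, and Il18rap, a chain of the interleukin-18 receptor, by 4.27 and 2.96 from levels of at most 2.01 CPM with PBS.

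By the pattern of the 6 group means of log2 CPM, each centred on its own mean, the genes nearest to the 3 members called in both rearings were sought among 8271 genes with a mean log2 CPM of at least 3. For Cd14 they were Gm42602, C5ar1 and Slc39a14, with root mean square differences of 0.171, 0.188 and 0.214. For Myd88 they were Nupr1, Rnf19b and Ptpn1 at 0.075, 0.080 and 0.090, and for Tirap they were Tmem198b, Phf13 and Aig1 at 0.102, 0.153 and 0.192. Without the 3 low libraries (an alternative chosen after seeing the data) they were C5ar1, Gm42602 and Pfkfb3 for Cd14, Ptpn1, Rnf19b and Btg1 for Myd88, and Gm39318, Kri1 and Gnl3 at 0.077, 0.087 and 0.097 for Tirap. None of the 3 genes nearest to Tirap was thus among those found with all libraries. Gm39318 shares 446 exon bases with Tirap on the other strand, and the part of this overlap in their likeness was not tested. C5ar1 codes for a complement receptor and Ptpn1 for a tyrosine phosphatase. The likeness is a description over 6 means.

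Age was compared between P9 and PBS-injected P200 mice. The P200 mice had been injected and the P9 mice had not. Per the paper, adult tissue but not P9 tissue went through a Percoll gradient, and the ages were separate cohorts. Injection, tissue preparation, cohort and age thus cannot be told apart. The PBS groups are the same mice that served as controls above. In CTR mice Cd14, Ly96, Myd88, Irak2 and Irak3 were higher and Irak1 was lower at P200, 6 of 10 members beside 44.1% of all genes called in either direction. Past an absolute log2 fold change above 1 there were 4 of 10, beside 26.4% of all genes. In ELS mice Cd14, Ly96, Myd88, Irak2 and Irak3 were again higher and Irak1 lower, 6 of 10 members beside 42.2% of all genes, and 3 of 10 passed the larger threshold, beside 26.2%. With so many genes called between the ages, these counts say little about the members as a set. Tirap, Ticam1, Ticam2 and Irak4 were not called in either.

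The co-receptors were both higher in the adult. Cd14 was 261 to 403 CPM in P9-CTR mice against 882 to 1057 CPM in P200-CTR-PBS mice. In ELS mice it was 263 to 602, both ends being low libraries with 309 and 408 next, against 898 to 1109 CPM. Its log2 fold change was 1.48 (SE 0.15, adjusted p = 2.21e-11, edgeR) in CTR and 1.48 (SE 0.16, adjusted p = 3.82e-11) in ELS mice, with no overlap in either. Ly96 was 14.1 to 25.4 CPM at P9 against 47.4 to 78.8 CPM at P200 in CTR mice, and 11.5 to 43.9 against 34.1 to 49.5 CPM in ELS mice, where the highest P9 value was that of the library with 15731 genes and the next was 28.6. Ly96 thus rose by 1.54 (SE 0.15, adjusted p = 2.04e-12) in CTR and 0.88 (SE 0.15, adjusted p = 4.94e-06) in ELS mice. Tlr4 moved the same way, by 1.3 (adjusted p = 4.12e-07) and 1.02 (adjusted p = 5.67e-05).

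Of the adaptors Myd88 was the one called with age. It was 51.9 to 84.1 CPM in P9-CTR mice against 99.2 to 165 CPM in P200-CTR-PBS mice, a difference of 0.84 in log2 (SE 0.20, adjusted p = 0.000501, edgeR). In ELS mice it was 7.60 to 102 CPM at P9, the lowest being the library with 15731 genes and the next 56.3, against 90.3 to 128 CPM at P200. There it rose by 0.57 (SE 0.20, adjusted p = 0.0196), and by 0.47 (adjusted p = 0.00197) without the 3 low libraries. It missed the threshold when the highest P200-ELS-PBS mouse was left out (0.50, adjusted p = 0.0646) or when only the compared groups were fitted (0.54, adjusted p = 0.128). Ticam1 was 0.40 (adjusted p = 0.464) in CTR and 0.67 (adjusted p = 0.213) in ELS mice with all libraries, and passed the threshold in both without the 3 low ones (0.62, adjusted p = 0.0439, and 0.94, adjusted p = 0.00268).

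Of the kinases Irak2 and Irak3 were higher at P200 and Irak1 was lower. Irak2 was 37.7 to 73.5 CPM in P9-CTR against 113 to 192 CPM in P200-CTR-PBS mice, and 8.41 to 90.9 against 101 to 192 CPM in ELS mice. Both ends of the P9-ELS range were low libraries, and the next values were 42.5 and 88.0 CPM. The groups did not overlap, and the log2 fold change was 1.45 (SE 0.21, adjusted p = 1e-07, edgeR) and 1.48 (SE 0.21, adjusted p = 1.02e-07). Irak3 was 0.333 to 5.32 CPM at P9 against 5.54 to 17.9 CPM at P200 in CTR mice, and 0.0507 to 5.25 against 3.72 to 16.1 CPM in ELS mice. It changed by 2.06 (SE 0.40, adjusted p = 3.81e-05) and 2.05 (SE 0.41, adjusted p = 5.2e-05) on the log2 scale, the largest age difference of the 10 genes. Without the 3 low libraries, 1 of which held 1 read of Irak3, the values were 1.87 (adjusted p = 2.14e-05) and 2.02 (adjusted p = 8.73e-06). Irak3 shares 192 exon bases with the more abundant Tmbim4 on the other strand.

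Irak1 was 16.3 to 40.2 CPM in P9-CTR against 11.4 to 20.4 CPM in P200-CTR-PBS mice, which overlapped, with a log2 fold change of -0.69 (SE 0.20, adjusted p = 0.00341, edgeR). In ELS mice it was 11.7 to 46.1 against 10.9 to 19 CPM, the highest P9 value being the library with 15731 genes and the next 26.4. The difference there was -0.53 (SE 0.20, adjusted p = 0.0312) and missed the threshold without the 3 low libraries (-0.39, adjusted p = 0.0716). It also did so when any 1 of 3 P200-ELS-PBS mice was left out (adjusted p = 0.0529 to 0.0928). Irak4 had medians of 30.1 and 32.0 CPM at P9 and P200 in CTR mice and of 32.1 and 31.4 CPM in ELS mice.

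Markers of other cells also differed between the ages, whose tissue preparation and cohort differed too. The 7 markers of border-associated macrophages summed to 551 to 921 CPM in P9-CTR and 476 to 909 CPM in P9-ELS mice, against 2.84 to 10.6 and 4.23 to 7.5 CPM in the PBS groups at P200, most of it from Mrc1, the mannose receptor gene (median 700 CPM in P9-CTR mice). The 6 neuronal markers summed to 36.9 to 99.4 and 18.8 to 107 CPM at P9 and to 2.54 to 11.9 and 3.84 to 9.65 CPM at P200. The 8 microglial markers summed to 35710 to 57240 CPM in P9-CTR and 45530 to 63220 CPM in P9-ELS mice, below all P200 mice. The monocyte list summed to 2.56 to 10.1 and 3.49 to 10.4 CPM at P9, ranges that overlapped with those of the PBS groups, but its genes moved apart. Ccr2 was higher at P200 (log2 fold change 2.67 in CTR and 2.56 in ELS mice, median 0.622 to 5.67 CPM in CTR mice), while Plac8 (-2.07 and -3.28) and Vcan (-2.77 and -5.63) were lower, all called. The neutrophil list summed to 9.08 to 20.0 and 10.1 to 30.9 CPM at P9, where 7 of its 8 genes had a median of 0 and Cxcr2 had 14.0 and 16.1 CPM, against a median of 0 at P200. The astrocyte list was 129 to 269 and 85.7 to 249 CPM at P9 against 299 to 503 and 313 to 453 CPM in the PBS groups. Within it Slc1a3 rose (1.57 and 1.91), while Gfap, Aqp4, Aldh1l1 and Gja1 fell, Gfap from a median of 39.3 to 1.23 CPM in CTR mice. The part of these differences in the members' changes with age was not tested.

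**Figure D4:**
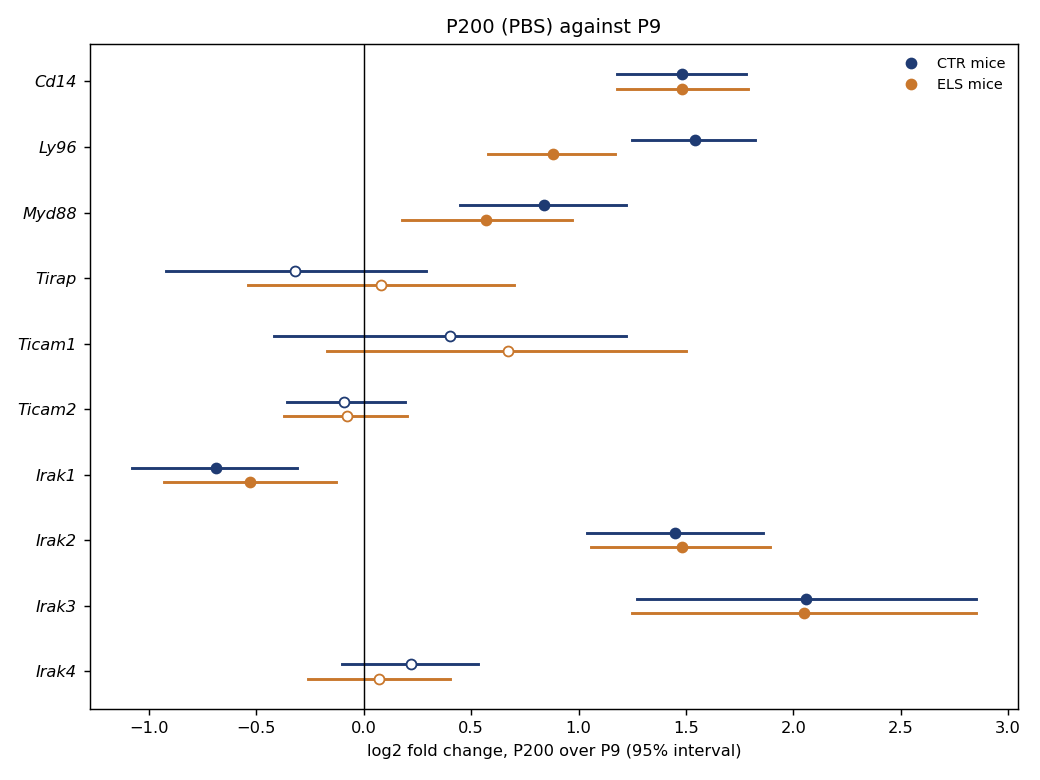
Log2 fold change of P200 (PBS) over P9 for the 10 genes in CTR and ELS mice, with 95% intervals. Filled points are called at an adjusted p under 0.05. Cd14, Ly96, Myd88, Irak2 and Irak3 lie to the right of 0 and Irak1 to the left in both.

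ELS was compared with CTR at P9, at P200 with PBS and at P200 with LPS, to ask whether early stress changed the module at once, in the adult at rest or under challenge. None of the 10 members was called in any of the 3 comparisons, and all groups overlapped for all members. At P9 edgeR's quasi-likelihood test called 0% of all genes, with 914 at an unadjusted p under 0.05, no member among them. DESeq2 also called 0 and the likelihood-ratio test 1. With PBS 0.168% of all genes were called, or 28 genes, a count that was 215 with the likelihood-ratio test, 178 with DESeq2 and 0 when only the compared groups were fitted. With LPS it was 0%, with 798 genes at an unadjusted p under 0.05, 10 called by the likelihood-ratio test and 2 by DESeq2. No member was called by either of these other tests.

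For Cd14 the ELS minus CTR difference in log2 was 0.08 at P9 (95% interval -0.18 to 0.34), 0.08 with PBS (-0.28 to 0.44) and 0.35 with LPS (-0.02 to 0.73), the last being 0.10 without the P200-ELS-LPS mouse with the highest Cd14. For Myd88 it was 0.02 (-0.32 to 0.35), -0.24 (-0.71 to 0.22) and 0.05 (-0.44 to 0.53). The intervals of both genes leave out a change of 1. Those of Ticam1 were wider, -0.38 to 1.02 at P9, -0.37 to 1.55 with PBS and -1.02 to 0.99 with LPS, so a difference of 1 could be missed there. With PBS the difference was 0.59, and without the 3 low libraries 0.37 (-0.23 to 0.96).

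Ly96 was the 1 member with an unadjusted p under 0.05 in the adult at rest. Its median was 55.8 CPM in P200-CTR-PBS and 44.8 CPM in P200-ELS-PBS mice, and 2 of the 6 ELS values lay within the CTR range. The log2 fold change was -0.45 (SE 0.18, unadjusted p = 0.0144, adjusted p = 0.323, edgeR), and -0.36 (adjusted p = 0.259) without the 3 low libraries. At P9 it was 0.21 (adjusted p = 0.937). The difference between the age effects in ELS and CTR mice was -0.66 for Ly96 (SE 0.22, unadjusted p = 0.00389, adjusted p = 0.283). No member was called in this interaction of age and rearing, beside 0.0299% of all genes, or 5 genes.

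Of the 57 pathway genes none was called between ELS and CTR mice at P9 or with LPS, and 1 with PBS. This was Ripk1, the kinase of the TRIF branch, at 2.90 to 14.4 CPM in P200-CTR-PBS and 16.2 to 32.1 CPM in P200-ELS-PBS mice (log2 fold change 1.43, SE 0.33, adjusted p = 0.0466, edgeR), and without the 3 low libraries it had a log2 fold change of 1.27 and an adjusted p of 0.0457. It missed the threshold when only the compared groups were fitted (1.43, adjusted p = 0.203) and under 5 other settings.

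**Figure D5:**
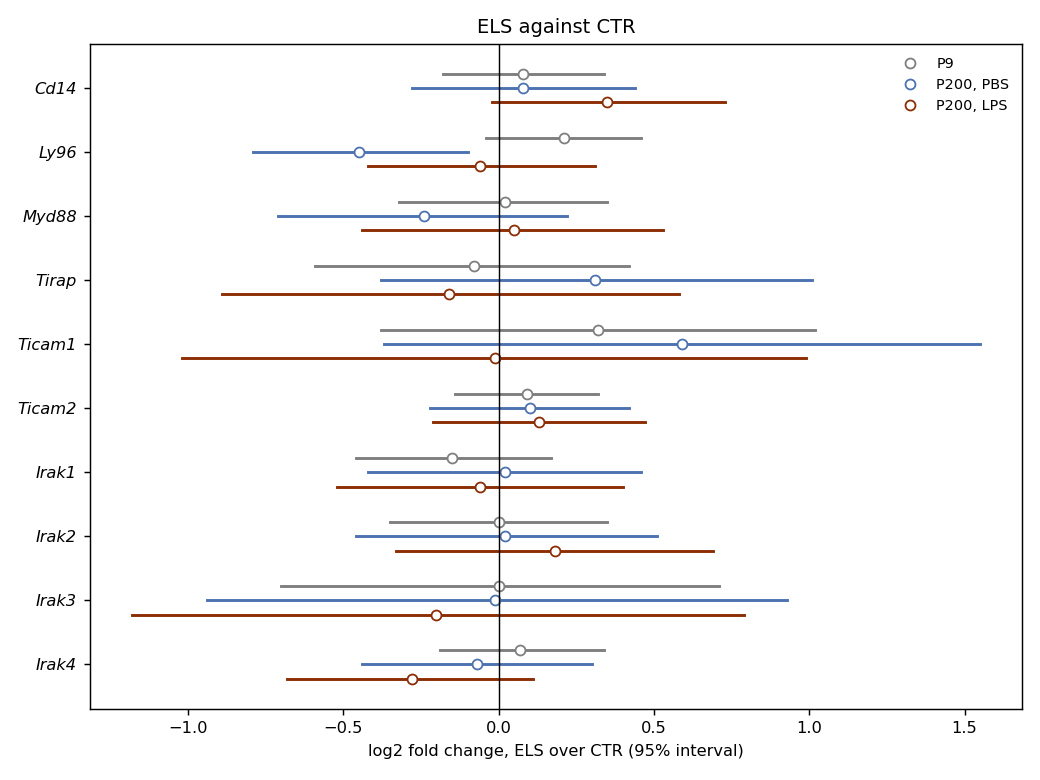
Log2 fold change of ELS over CTR for the 10 genes at P9, at P200 with PBS and at P200 with LPS, with 95% intervals. No point is filled, since none passed the adjusted p of 0.05, and the interval of Ly96 with PBS is the only one that does not include 0.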

How the data were processed

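Hippocampal microglia of 50 mice in 6 groups were sequenced as poly-A RNA. Per the paper's methods and the submitters' processing notes, the authors demultiplexed with bcl2fastq 2.20, trimmed with cutadapt 2.10, mapped to GRCm39 with STAR and counted unique exonic reads per gene with HTSeq 0.11.0. The annotation release and the strand setting are not given in the sources used here. The deposited values are raw counts per gene, 1 library per mouse. No pair of libraries within a group agreed within sampling noise.

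Counts were normalized with TMM in edgeR 4.0.16 (R 4.3.3), and a gene was kept where more than 2 mice reached 1 CPM. A model with 6 group means was tested with the quasi-likelihood test and Benjamini-Hochberg adjustment, after the procedure was tested on simulated data. Intervals are 95% intervals from the standard error. Exon lengths came from a GENCODE annotation of GRCm39, which held 52610 of the 53700 genes. The 10 members, the pathway list and the markers were chosen with earlier results of these data known. All members are named, as are Tlr4 and, per pathway group, the 3 genes with the lowest p for LPS against PBS in CTR mice. Genes outside these rules, such as Slc1a3, Sall1, P2ry12, Mrc1 and Aqp4, were named after their values were seen. Alternatives used edgeR's likelihood-ratio test, DESeq2 1.42.0, limma 3.58.1 with voom, other size factors and filters, fewer libraries, a replicate block, and fits without each P200 mouse. Each sample had 5152838 to 42231258 counts, and a gene near 1 read in a library, such as Ticam1 in mouse 1.1, is measured with little precision.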

Additional observations from a re-analysis of the deposited data

Results flagged for a closer look

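Among the 40 combinations of a member and a P200 group, 8 held a mouse whose gap to its nearest neighbour on the log2 CPM scale took up an unusually large share of the group's range. Chance gives this in about 1 of 20 combinations.

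In P200-CTR-PBS, mouse 1.1, the library with 12854 detected genes, was far below the others for Tirap (0.102 against 15 CPM for the next, a share of 0.872), Ticam1 (0.0509 against 6.77 CPM, 0.821) and Ticam2 (40.9 against 54.5 CPM, 0.593). In P200-CTR-LPS, mouse 1.2 was above the others for Tirap (95 against 71.6 CPM, 0.633) and Irak1 (23.7 against 17 CPM, 0.759). In P200-ELS-PBS, 1 mouse was highest for Myd88 (128 against 102 CPM, 0.653). In P200-ELS-LPS, mouse 4.2 was lowest for Ticam1 (25.3 against 44.2 CPM, 0.724) and another mouse for Ticam2 (22.5 against 50.7 CPM, 0.781). Without mouse 4.2 the LPS effect on Ticam1 in ELS mice passed the threshold (log2 fold change 1.68, adjusted p = 0.0401, edgeR).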

How the results depend on the processing

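The 90 log2 fold changes of the members were recomputed under 9 or 10 other settings and, except for ELS against CTR at P9, without each P200 mouse of the compared groups in turn, 1850 values in all. No P9 mouse was left out on its own. Over the alternatives run for it, no value reversed a called change, and 83 of the 90 stayed on their side of the threshold. The exceptions were Ticam2 with LPS in CTR mice, Tirap and Ticam1 with LPS in ELS mice, Ticam1 with age in CTR and ELS mice, and Myd88 and Irak1 with age in ELS mice. The count of members called with LPS was 4 to 6 in CTR and 3 to 4 in ELS mice over all settings. With age it was 4 to 7 in CTR mice, and in ELS mice it was 3 under the study's fold threshold and up to 7 otherwise. Without 1 mouse at a time these counts were 5 to 5, 3 to 4, 6 to 6 and 5 to 6. For the ELS contrasts and both interactions the count was 0 in every setting. Ticam1 with LPS in ELS mice had an adjusted p between 0.000294 and 0.0667 under the other settings and passed in 8 of them.

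The number before the point in the mouse labels was tried as a replicate block for the LPS comparisons. At P200, the deviations of same-numbered PBS and LPS mice from their groups had correlations of -0.041 to 0.084. Of the LPS mice, 4 of 12 correlated best with a PBS mouse of their own number. P9 mice were not compared in this way. In the voom fit, mice of the same age and number had a correlation of 0.0778. The share of best matches expected by chance was not computed, so these values do not settle whether the numbers mark nests. The main fit did not use the numbers as pairs. With the block 5 members were called in CTR and 3 in ELS mice, as without it, but in ELS mice Tirap was lost (1.45, adjusted p = 0.0827) and Ticam1 gained (1.54, adjusted p = 0.044). Over all genes the block called 2161 in CTR and 2123 in ELS mice. For LPS in CTR mice the standard error was 0.49 for Ticam1, 0.46 for Irak3 and 0.35 for Tirap, and without the 3 low libraries it was 0.31, 0.41 and 0.18.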
